A study of Mus musculus with 2 samples.

Results

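RNA of 41 genes that code for splicing factors or for the kinases that act on them was followed in single-cell libraries of mouse liver tumours. The genes were taken by symbol from the 32285 features of both count matrices, and each matched 1 gene ID. They comprise 10 SR proteins, the 2 Tra2 genes, 12 hnRNP genes with Ptbp1 counted among them, 3 genes of the U1 and Sm particles, 5 genes of U2 and 3′ splice site recognition, Prpf8 of U5, the 4 CLK kinases, the 2 SRPK kinases, and Srrm1 and Srrm2. Srsf10, the target of the hairpin, is an SR protein too and was kept out of the set.

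SR proteins bind exonic enhancers through RNA recognition motifs and recruit U1 and U2 components through domains rich in arginine and serine, while hnRNPs often act in the opposite sense and repress nearby splice sites. SRPK kinases phosphorylate the arginine-serine domain in the cytoplasm, which lets SR proteins enter the nucleus, and CLK kinases phosphorylate it further inside the nucleus. Many genes of both families hold a poison exon or a retained intron, through which a surplus of the protein can turn its own transcript towards nonsense-mediated decay.

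The study held 2 libraries and so 1 per group, and both came from tumours of mice. The shCtrl library has the genotype label WT, and the shSrsf10 library carries that name as its genotype, a short hairpin RNA against Srsf10. The labels give neither the strain, age or number of animals nor the cells that carry the hairpin, and they do not say how the tumours were made. They disagree on the kit, which is a 5′ kit in the design and a 3′ kit in the protocol, and on whether a sorted tumour digest or the upper phase of a liver spin was loaded. Without replicates no difference was tested, and every interval given here is at 95% and covers counting error only.

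Cell classes were gates on marker UMIs (unique molecular identifiers, each a captured RNA molecule). Tumour barcodes had at least 5 Krt8 and Krt18 UMIs and 0 of Ptprc. T barcodes had at least 2 UMIs of Cd3d, Cd3e and Cd3g, neutrophil barcodes at least 1% of UMIs from S100a8 and S100a9, and macrophage barcodes at least 3 of C1qa, C1qb and C1qc. A barcode that passed the marker threshold of more than 1 gate was left out as a possible doublet. In shCtrl and shSrsf10 the gates held 6852 and 3840 tumour, 324 and 1855 T, 147 and 288 neutrophil, and 397 and 125 macrophage barcodes. Their median depth was 17340.5 and 26398.5 UMIs in tumour, 1891 and 2447 in T, 688 and 797.5 in neutrophil, and 2002 and 3074 in macrophage barcodes. Levels are CPM, the UMIs of a gene scaled to the UMI total of its gate, so each is a share of the captured RNA of that gate. The libraries shared 67 barcode sequences.

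In shCtrl and shSrsf10, 6 epithelial markers summed to 5743 and 6191 CPM in tumour barcodes. In T barcodes 7 T cell markers summed to 6315 and 7588 CPM, and in macrophage barcodes 7 macrophage markers to 14180 and 15293 CPM. In neutrophil barcodes the neutrophil markers summed to 169593 and 117299 CPM. These sums include the genes that set the gates, so they were bound to be high. Of the markers outside the gate rules, Krt19 was at 359 and 395 CPM and Cdh1 at 0.16 and 0.19 CPM in tumour barcodes. Trbc2 was at 2124 and 2572 CPM in T, Retnlg at 4105 and 3198 CPM in neutrophil and Csf1r at 502 and 322 CPM in macrophage barcodes. Some other listed markers ran the opposite way between the libraries. In tumour barcodes Epcam was at 82.1 and 57.3 CPM and Afp at 1610 and 1113 CPM. In neutrophil barcodes Csf3r was at 771 and 1028 CPM, Cxcr2 at 154 and 275 CPM and Mmp9 at 668 and 680 CPM. Cd68 was at 744 and 757 CPM in macrophage barcodes. Immune gates also held liver RNA. The summed level of the listed secreted liver proteins was 824 CPM in shCtrl and 227 in shSrsf10 T barcodes, 2328 and 883 in neutrophil, and 1549 and 430 in macrophage barcodes, against 9194 and 5656 in tumour barcodes. Fibroblast markers (4 genes) summed to 9.94 and 70.1 CPM in tumour, 2.07 and 45.2 in T, 14.7 and 3.62 in neutrophil and 7.90 and 228 in macrophage barcodes. The tumour sum was mostly Dcn, at 8.41 and 67.2 CPM, with Col1a1 at 0.80 and 1.97 CPM. In T barcodes Dcn was at 1.04 and 2.72 CPM and Col1a1 at 1.04 and 27.8 CPM. In macrophage barcodes Dcn was at 3.95 and 4.39 CPM and Col1a1 at 2.96 and 143 CPM. The nuclear RNAs Malat1 and Neat1 together were lower in shSrsf10 in all 4 classes, at 239 and 167 CPM in tumour, 721 and 642 in T, 1689 and 1263 in neutrophil and 1219 and 654 in macrophage barcodes. Their part in the differences between the libraries was not tested. Srsf10 itself was at 45.7 CPM in shCtrl and 19.7 CPM in shSrsf10 tumour barcodes, a log2 ratio of -1.21 (-1.28 to -1.14). Its log2 ratio was -0.35 (-0.72 to 0.03) in T and 0.04 (-0.86 to 0.88) in macrophage barcodes, and with 5 and 8 UMIs it was not measured in neutrophil barcodes. In gates that keep barcodes passing more than 1 gate, it was -0.64 in T and -0.79 in macrophage barcodes, both past 1.5-fold lower and the latter with its sign turned.

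Promoters are shown for the members whose RNA differed most between the libraries in tumour barcodes, Srsf9, Srsf2, Srsf1 and Clk2 on the lower side and Snrpa on the higher side. Each line gives the 120 bases before the RefSeq gene start on GRCm38.p6, 5′ to 3′ on the strand of the gene. Capitals mark the motifs searched on either strand. These were the GC box spelled GGGCGG, the promoter motif known as the CCAAT box, the palindromic E-box spelled CACGTG, an ETS type motif spelled CCGGAAG, the palindromic cyclic AMP response element (CRE) spelled TGACGTCA, and the TATA box spelled TATAAA.
Srsf9, chr5:115327057-115327176, plus strand: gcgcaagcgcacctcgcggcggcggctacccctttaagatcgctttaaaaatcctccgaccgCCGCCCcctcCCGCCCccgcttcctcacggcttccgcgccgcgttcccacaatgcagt
Srsf2, chr11:116853095-116853214, minus strand: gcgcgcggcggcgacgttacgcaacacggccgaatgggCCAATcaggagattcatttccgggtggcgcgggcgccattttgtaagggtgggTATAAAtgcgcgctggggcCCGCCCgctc
Srsf1, chr11:88047253-88047372, plus strand: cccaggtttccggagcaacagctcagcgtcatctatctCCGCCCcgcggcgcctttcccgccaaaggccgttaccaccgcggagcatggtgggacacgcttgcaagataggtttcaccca
Clk2, chr3:89164675-89164794, plus strand: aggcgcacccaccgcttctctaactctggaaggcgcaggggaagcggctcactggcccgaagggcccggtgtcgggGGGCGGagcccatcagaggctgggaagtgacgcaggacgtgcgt
Snrpa, chr7:27196272-27196391, minus strand: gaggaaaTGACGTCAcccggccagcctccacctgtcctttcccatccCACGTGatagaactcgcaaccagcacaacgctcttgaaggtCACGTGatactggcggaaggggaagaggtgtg

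The 4 promoters of the lower members each held a GC box in these 120 bases, in 1 or 2 copies. U2af1, whose ratio in tumour barcodes was on the higher side, also held GC boxes there, at each listed start. The Snrpa window, before 1 of 2 listed starts, held 1 CRE and 2 E-boxes, and its only GC box lay farther out within 250 bases. The other Snrpa start had 1 E-box and no CRE within 250 bases, and Clk2 had 1 E-box there as well. Over the 250 bases before the start, 38 of the 41 members had an entry, and Clk1, Snrpb and U2af2 had none. A GC box stood in 29 of the 38 (76.3%), against 35.4% of 27025 genes of all kinds with an entry. The ETS type motif stood in 9 members (23.7%) against 7.83% of genes, the E-box in 6 (15.8%) against 6.86%, and the CRE in 3 (7.89%) against 1.77%. The CCAAT box stood in 18 (47.4%) against 37.5%, and the TATA box in 4 (10.5%) against 14.3%. Motifs may overlap each other, as the ETS type motif can with a reversed GC box, and a match is a description of the letters only.

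In tumour barcodes the splicing set as a whole differed little between the libraries, and the largest differences were in SR proteins. Of 41 members 40 were measured, that is had at least 20 UMIs over both libraries. None was at least 1.5-fold higher in shSrsf10, where 8.89% of the 14877 measured genes were, and 2 were at least 1.5-fold lower, where 13.3% of genes were. Among the 8443 genes with at least 1000 UMIs, as all 40 members had, these shares were 2.74% and 10.2%. The median log2 ratio over members was -0.14, against -0.07 over all measured genes, and 29 of the 40 were below 0. Only Srsf12, a testis- and brain-enriched SR protein, was not measured. It had 1 UMI in shCtrl and 0 in shSrsf10 tumour barcodes, 0 and 1 in T barcodes, and 0 elsewhere.

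**Figure D1:**
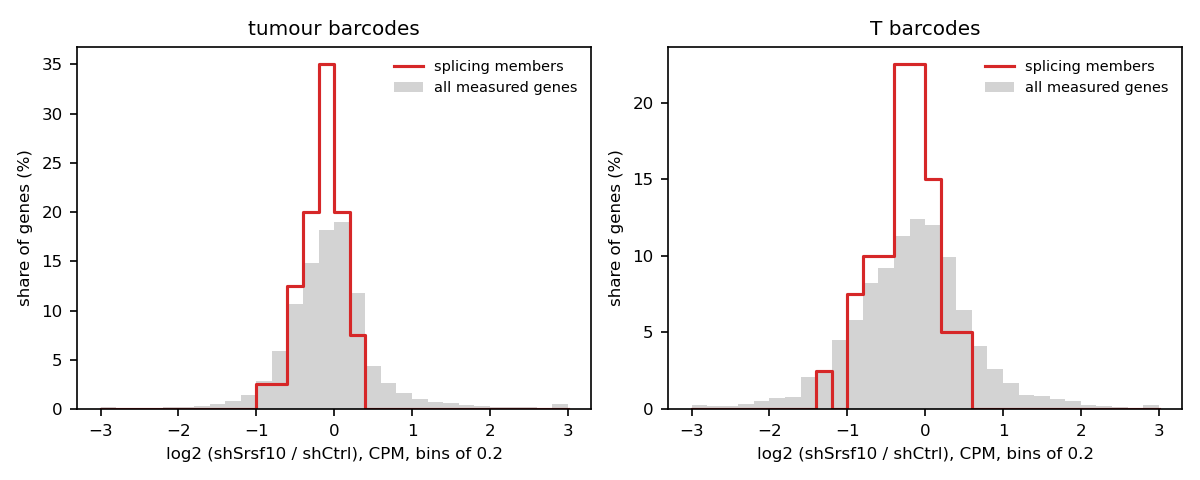
Share of genes (%) by log2 ratio of CPM, shSrsf10 over shCtrl, in bins of 0.2, for tumour barcodes (left) and T barcodes (right). Grey bars are all measured genes and the red line the splicing members, which in tumour barcodes lie between -0.98 and 0.25 and in T barcodes between -1.30 and 0.59.

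Srsf9 (chr5:115327177-115333080, plus strand), an SR protein with a short arginine-serine domain, was at 38.1 CPM (37.1 to 39.2) in shCtrl and 19.4 CPM (18.6 to 20.2) in shSrsf10. Its log2 ratio of -0.98 (-1.05 to -0.90) was the lowest of the set. Srsf2 (chr11:116849901-116853094, minus strand), which binds exonic enhancers and also acts in the release of paused polymerase, was at 67.0 CPM (65.6 to 68.4) in shCtrl and 41.6 CPM (40.5 to 42.8) in shSrsf10, a log2 ratio of -0.69 (-0.74 to -0.63). These 2 were the members past 1.5-fold.

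Srsf1, the founding SR protein, was at 33.7 and 22.8 CPM, a log2 ratio of -0.56 (-0.63 to -0.49). Srsf6 was at 82.8 and 57.9 CPM, a log2 ratio of -0.52 (-0.56 to -0.47). Both lay just short of 1.5-fold, and both were past it among barcodes within a common depth window, at -0.59 and -0.61, which raised the count of lower members there from 2 to 4. Srsf4 was at 10.0 and 7.66 CPM, a log2 ratio of -0.39 (-0.51 to -0.26), and Srsf11, which works in both spliceosomes at the 3′ splice site, was at 72.8 and 60.2 CPM, a log2 ratio of -0.28 (-0.32 to -0.23).

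The other SR proteins were level between the libraries. Srsf3, which also takes part in mRNA export, was at 223 and 219 CPM, a log2 ratio of -0.03 (-0.05 to -0.00). Srsf7, its close relative and a fellow export adaptor, was at 217 CPM in both libraries, with an interval of the log2 ratio from -0.02 to 0.03. Srsf5 was at 72.5 CPM in both, with an interval from -0.04 to 0.04. The SR family was thus not uniform, with 7 of its 9 measured members below 0 and intervals that do not overlap between Srsf9, Srsf2 and these 3. Tra2a and Tra2b, which bind purine-rich enhancers, had log2 ratios of -0.18 (-0.23 to -0.13) and -0.05 (-0.10 to 0.01).

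**Figure D2:**
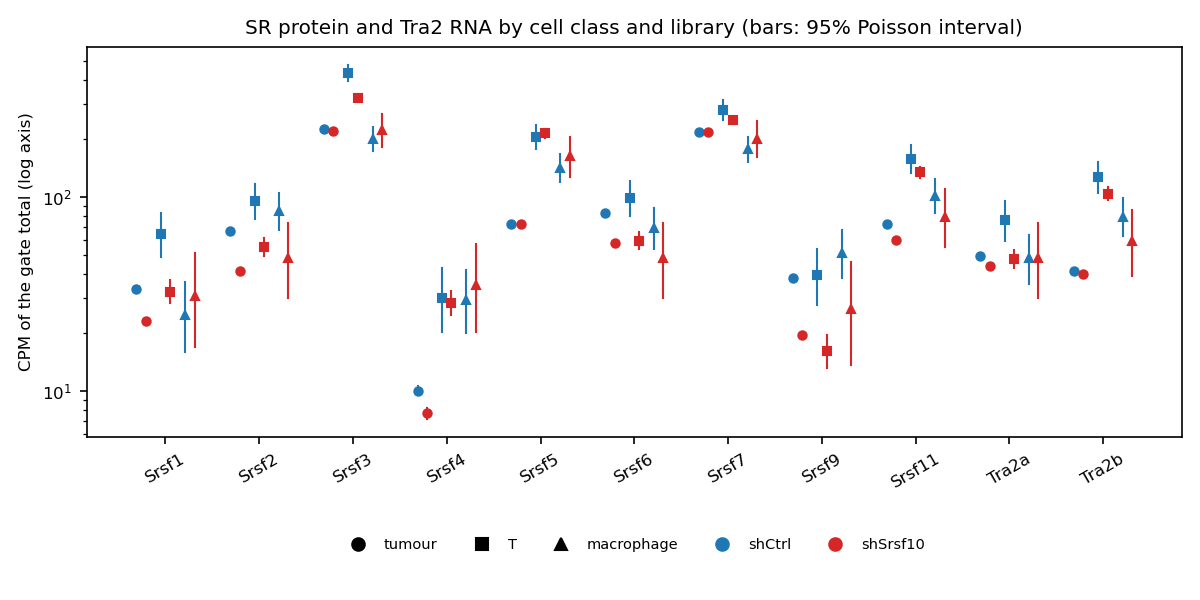
Level in CPM of the gate total (log axis) of the 9 measured SR proteins and the 2 Tra2 genes in tumour (circles), T (squares) and macrophage (triangles) barcodes of the shCtrl (blue) and shSrsf10 (red) libraries, with 95% Poisson intervals as bars. For Srsf9 and Srsf2 the red symbol lies below the blue in all 3 classes, while for Srsf5 and Srsf7 the tumour circles coincide.

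Of the kinases, Clk2 was at 8.17 CPM (7.69 to 8.67) in shCtrl and 5.51 CPM (5.09 to 5.96) in shSrsf10 tumour barcodes, a log2 ratio of -0.57 (-0.71 to -0.43). Clk4 was at 14.5 and 11.5 CPM, a log2 ratio of -0.34 (-0.44 to -0.24). Clk1 and Clk3 did not share this lower level, at 32.4 and 32.1 CPM for Clk1, a log2 ratio of -0.01 (-0.08 to 0.05), and at 14.6 and 15.3 CPM for Clk3, a log2 ratio of 0.07 (-0.03 to 0.16). Among the SRPK kinases the log2 ratio was -0.39 (-0.51 to -0.28) for Srpk2 and -0.14 (-0.20 to -0.09) for Srpk1. With barcodes thinned to 1000 UMIs the Clk2 ratio was -0.19, and without cycling barcodes it was -0.60 and past 1.5-fold.

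The large scaffold proteins of SR complexes were lower by about the same amount as Clk2. Srrm2, which also builds nuclear speckles, was at 160 CPM (158 to 162) and 110 CPM (108 to 112), a log2 ratio of -0.54 (-0.57 to -0.51). Srrm1 had a log2 ratio of -0.47 (-0.54 to -0.40). Neither passed 1.5-fold.

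The 4 highest ratios in tumour barcodes were those of Snrpa, Snrpb, U2af1 and Hnrnpa2b1. Snrpa, which codes for a stem-loop binding protein of the U1 particle, was at 117 CPM (115 to 119) in shCtrl and 139 CPM (137 to 141) in shSrsf10, a log2 ratio of 0.25 (0.22 to 0.28). Snrpb, which codes for Sm proteins of every major spliceosomal particle but U6, was at 430 and 511 CPM, a log2 ratio of 0.25 (0.23 to 0.26). U2af1, which reads the AG of the 3′ splice site, was at 298 and 347 CPM, a log2 ratio of 0.22 (0.20 to 0.24). Hnrnpa2b1 was at 288 and 329 CPM, a log2 ratio of 0.19 (0.17 to 0.21). These 4 intervals exclude 0, yet each difference is under 1.5-fold. Of the other core proteins U2af2 had a log2 ratio of 0.04, and the rest were below 0. Snrnp70, also of the U1 particle, was at -0.07 (-0.11 to -0.03). Sf3b1, the branch site protein, and Prpf8, the central protein of U5, were both at -0.27. The remaining hnRNPs ran from -0.33 for Hnrnpd to 0.10 for Hnrnpk, with none of the 12 past 1.5-fold. Hnrnpa1 and several other hnRNP genes have processed pseudogenes, so how counting split their reads is uncertain.

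**Figure D3:**
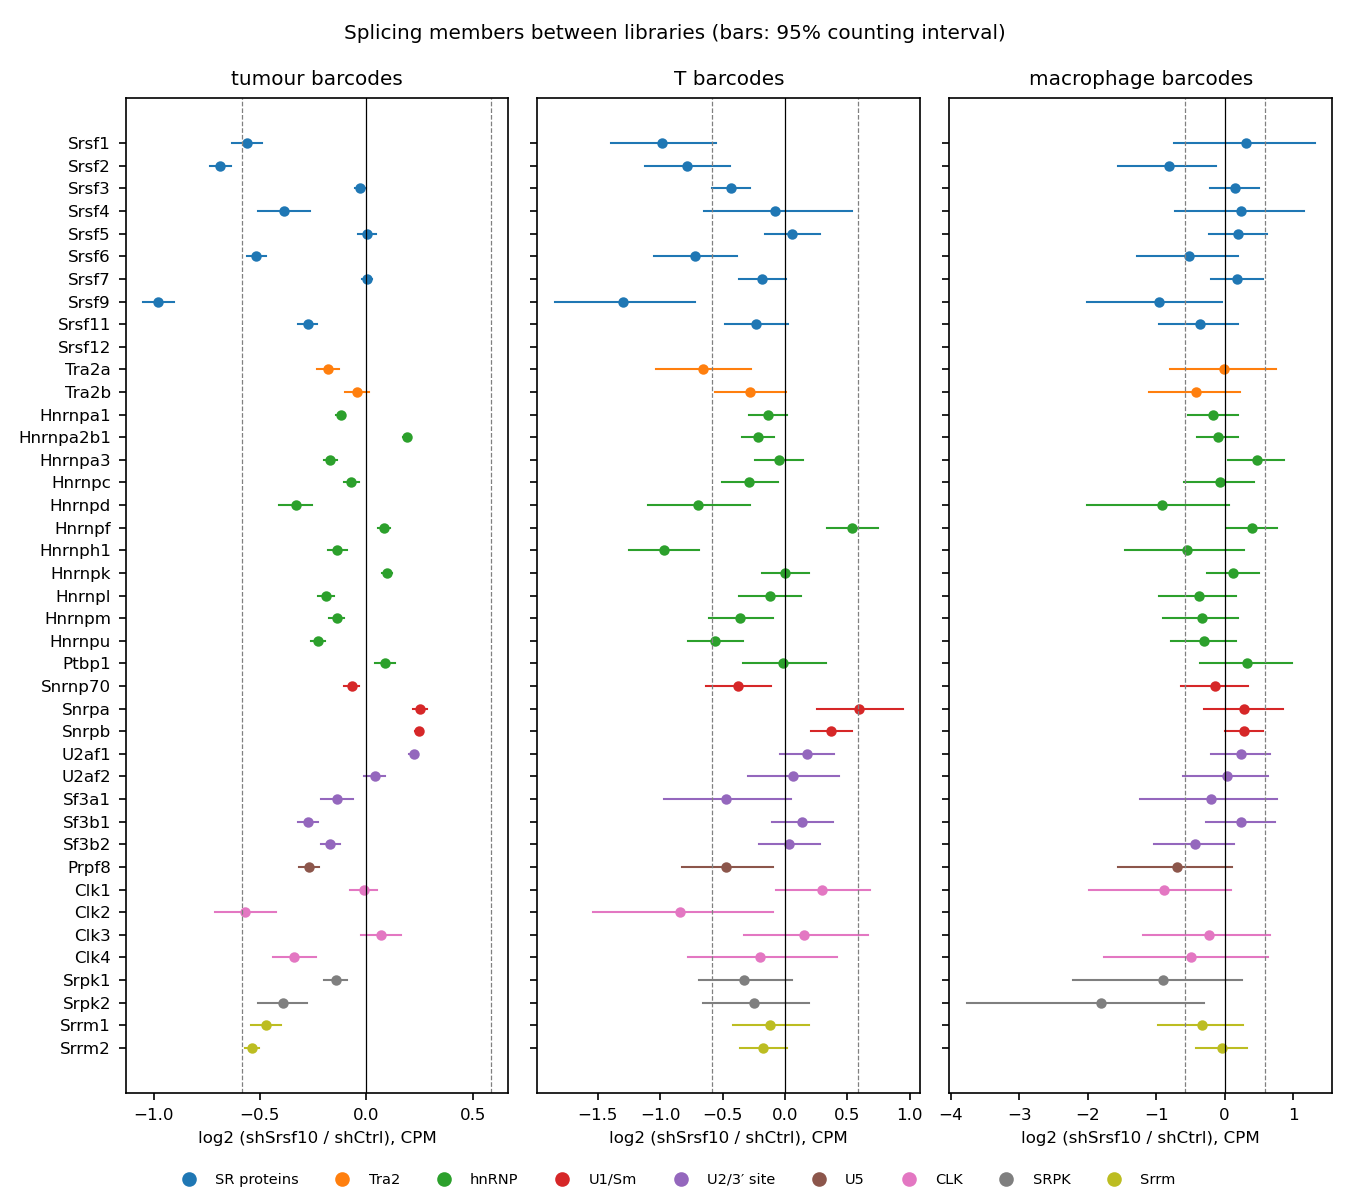
Log2 ratio of CPM, shSrsf10 over shCtrl, for each measured member in tumour, T and macrophage barcodes (x axes differ in range), with 95% counting intervals as bars, 1.5-fold as dashed lines and colours for the roles. Srsf9 and Srsf2 lie left of the lower dashed line in all 3 panels, and the tumour intervals are much shorter than the macrophage ones.

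In T barcodes more members were lower in shSrsf10 than in tumour barcodes, on far fewer UMIs. Of 40 measured members 1 was at least 1.5-fold higher, against 12.9% of 9630 measured genes, and 8 were at least 1.5-fold lower, against 26.7% of genes. Among the 5781 genes with at least 100 UMIs, as all 40 had, the shares were 11.2% and 18.4%. The members' 8 of 40 is thus close to the share of all genes. The median log2 ratio was -0.21 over members and -0.14 over all measured genes, and median-of-ratios scaling shifts every T ratio up by 0.11. Cycling barcodes made up 32.7% of T barcodes in shCtrl and 22.7% in shSrsf10.

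SR proteins again held the lowest ratio. Srsf9 was at 39.4 CPM (27.9 to 54.1) in shCtrl and 16.0 CPM (13.1 to 19.4) in shSrsf10, from 38 and 106 UMIs, a log2 ratio of -1.30 (-1.84 to -0.72). Srsf1 was at 64.3 and 32.5 CPM, a log2 ratio of -0.98 (-1.40 to -0.55). Hnrnph1, which binds runs of G, was at 143 and 72.9 CPM, a log2 ratio of -0.97 (-1.25 to -0.69). Clk2 was at 22.8 and 12.7 CPM, from 22 and 84 UMIs, a log2 ratio of -0.84 (-1.54 to -0.10). The other 4 lower members were Srsf2 at -0.79, Srsf6 at -0.73, Hnrnpd at -0.70 and Tra2a at -0.66. Without cycling barcodes Srsf9 was at -0.92, Srsf1 at -1.57, Hnrnph1 at -0.75 and Clk2 at -1.0. Srsf2 was then at -0.38 and Hnrnpd at -0.51, short of 1.5-fold, and Srsf3 was at -0.70.

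Snrpa was the only member past 1.5-fold on the higher side in T barcodes, at 81.9 CPM (64.9 to 102) in shCtrl and 123 CPM (115 to 132) in shSrsf10. Its log2 ratio of 0.59 (0.26 to 0.94) lies barely past the threshold of 0.58. Under 6 of 14 alternative settings it was short of that threshold, down to 0.31 within the depth window. Hnrnpf, a relative of Hnrnph1, was at 226 and 329 CPM, a log2 ratio of 0.54 (0.34 to 0.75), opposite in sign to Hnrnph1. Snrpb followed at 356 and 460 CPM with 0.37 (0.21 to 0.54). Clk1 was at 70.5 and 86.5 CPM, a log2 ratio of 0.29 (-0.07 to 0.68). The Snrpa and Snrpb ratios were thus above 0 in tumour, T and macrophage barcodes.

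Macrophage barcodes gave 39 measured members, of which none was at least 1.5-fold higher in shSrsf10 (9.94% of 5954 genes were) and 7 were at least 1.5-fold lower (24.3% of genes were). The members' median log2 ratio was -0.17, against -0.10 over all genes. Srpk2, a kinase of SR proteins, was lowest, at 30.6 CPM (20.8 to 43.4) from 31 UMIs in shCtrl and 8.77 CPM (2.39 to 22.5) from 4 UMIs in shSrsf10, a log2 ratio of -1.80 (-3.77 to -0.30). Srpk1 was lower too, at 32.6 and 17.5 CPM, with -0.89 (-2.22 to 0.25). Both kinases of the family were therefore on the low side, from 8 UMIs or fewer each in shSrsf10.

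Srsf9 was at 51.3 and 26.3 CPM in macrophage barcodes, a log2 ratio of -0.96 (-2.00 to -0.04). Srsf2 was at 84.9 and 48.3 CPM, a log2 ratio of -0.81 (-1.56 to -0.13). Hnrnpd, which binds AU-rich elements, was at 45.4 and 24.1 CPM with -0.91 (-2.01 to 0.06), Clk1 at 44.4 and 24.1 CPM with -0.88 (-1.98 to 0.09), and Prpf8 had a log2 ratio of -0.69 (-1.56 to 0.10). The intervals of Srpk2, Srsf9 and Srsf2 exclude 0, and those of the other 4 include it. The summed level of the 11 genes of the dissociation stress list was 3429 CPM in shCtrl and 1943 CPM in shSrsf10 macrophage barcodes, and its part in these ratios was not tested. Without the exclusion of barcodes in more than 1 gate, Hnrnpd and Prpf8 changed sign, to 0.06 and 0.11.

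The highest macrophage ratios were those of Hnrnpa3, at 133 and 184 CPM with 0.47 (0.06 to 0.87), Hnrnpf, at 170 and 224 CPM with 0.40 (0.03 to 0.76), Ptbp1 at 0.32 (-0.36 to 0.99) and Srsf1 at 0.32 (-0.74 to 1.31). Srsf1 rested on 25 and 14 UMIs, and its interval spans values from below the tumour ratio to above 2-fold higher. Clk2, with 6 and 7 UMIs, was not measured.

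Neutrophil barcodes are shallow, and only 20 of the 41 members reached 20 UMIs. At least 1.5-fold higher were 2 (30.5% of 2144 genes were), and 3 were at least 1.5-fold lower (20.1% of genes were). Sf3b2 had a log2 ratio of 0.80 (-0.19 to 1.92), Clk1 0.64 (-0.74 to 2.25), Sf3b1 0.48 (-0.19 to 1.20) and Srsf5 0.48 (-0.05 to 1.03). Hnrnpa3 was at 220 CPM from 30 UMIs and 97.7 CPM from 27 UMIs, a log2 ratio of -1.17 (-1.98 to -0.37). It was the only called member whose interval excludes 0. Hnrnpm was at -0.63 (-1.76 to 0.53), Hnrnpc at -0.61 (-1.55 to 0.36) and Srsf7 at -0.56 (-1.56 to 0.46). Median-of-ratios scaling shifts all neutrophil ratios down by 0.27 and turns the split of 2 higher and 3 lower into 0 and 9, so no direction of the set can be given in this class. Srsf9, Sf3a1, Clk2, Ptbp1 and Srsf12 had 1 UMI or none in each library.

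Cell classes were compared within each library. Each library gave its own ratio of T to tumour barcodes, and the libraries stand side by side as different conditions. Of 40 measured members 13 were at least 2-fold higher in T barcodes in both libraries, as were 28% of 6880 measured genes, and none was 2-fold lower, as were 14% of genes. The member median was a log2 ratio of 0.80 in shCtrl and 0.54 in shSrsf10, against 0.44 and 0.32 for all measured genes. Above 0 in both libraries were 36 members, and 3 were below 0 in both.

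Srpk2 and Srrm1 led this order. Srpk2 was at 11.4 CPM in tumour and 58.1 CPM in T barcodes of shCtrl and at 8.65 and 49.0 CPM in shSrsf10, log2 ratios of 2.35 (1.94 to 2.74) and 2.50 (2.32 to 2.68). Srrm1 was at 31.8 and 108 CPM in shCtrl and at 22.9 and 99.2 CPM in shSrsf10, log2 ratios of 1.76 and 2.11. Srsf4 followed with 1.59 and 1.89, and Clk3 with 1.51 and 1.59. All 4 CLK kinases were at least 2-fold higher in T barcodes in both libraries, Clk1 with 1.12 and 1.43, Clk2 with 1.48 and 1.20 and Clk4 with 1.05 and 1.19. Median-of-ratios scaling lowers these ratios by more than the margin past 2-fold of Clk1, Clk2 and Clk4 in at least 1 library. The other members past 2-fold were Srsf5, Srsf11, Tra2b, Hnrnpd, Sf3b1 and Sf3b2. Srpk1, with 0.62 and 0.44, and Srrm2, with 0.80 and 1.16, were not past it in both libraries.

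U2af1, Snrpa and Snrpb were lower in T than in tumour barcodes of both libraries. U2af1 was at 298 and 212 CPM in tumour and T barcodes of shCtrl and at 347 and 238 CPM in shSrsf10, log2 ratios of -0.49 (-0.70 to -0.30) and -0.54 (-0.62 to -0.47). Snrpa had -0.51 and -0.17 and Snrpb -0.28 and -0.15. Srsf9 differed in sign between the libraries, at 0.05 and -0.27, and both intervals include 0, while Srsf6 (0.25 and 0.04) and Prpf8 (0.28 and 0.08) were near 0 in both. The count of 13 depends on the processing, and the share of all genes was not computed under the other settings. It was 6 with median-of-ratios scaling, which lowers the T over tumour ratios by 0.30 in shCtrl and 0.34 in shSrsf10, 8 with totals that leave out mitochondrial and ribosomal protein genes, 7 with barcodes thinned to 1000 UMIs and 3 without the exclusion of barcodes in more than 1 gate.

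**Figure D4:**
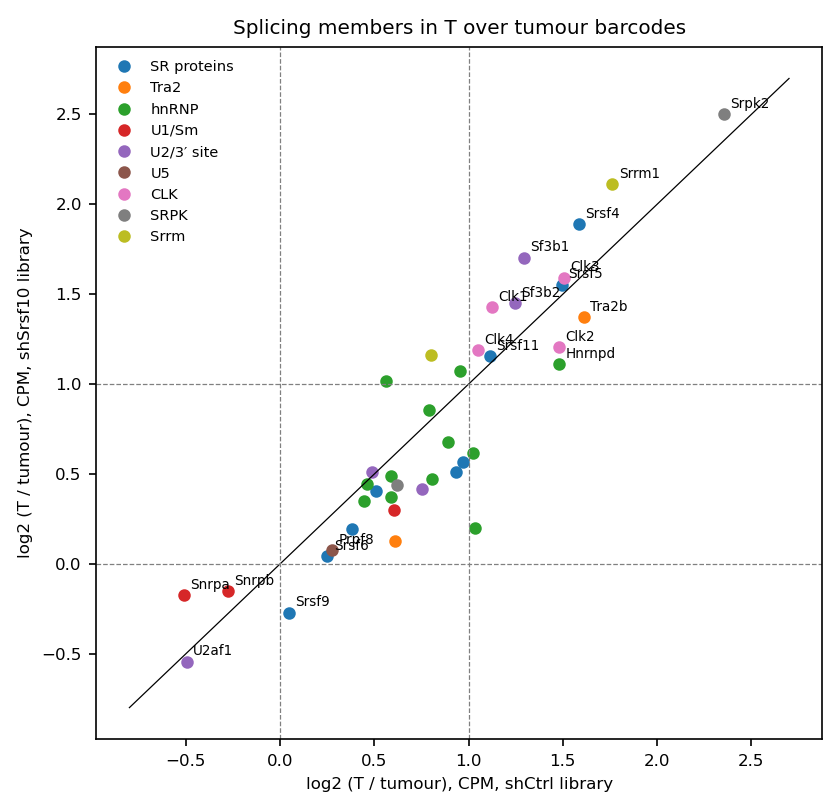
Log2 ratio of CPM, T over tumour barcodes, in the shCtrl (x axis) and shSrsf10 (y axis) libraries for the 40 measured members, coloured by role, with dashed lines at no difference and 2-fold and a solid line of equal ratios. Srpk2 lies farthest up at 2.35 and 2.50, the 13 members past 2-fold in both libraries fill the upper right, and U2af1, Snrpa and Snrpb lie below 0 on both axes.

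Macrophage barcodes differed less from tumour barcodes. Of 35 measured members 2 were at least 2-fold higher in both libraries (25.9% of 3887 genes were) and 1 was at least 2-fold lower (13.8% were). The higher members were Srrm1, with log2 ratios of 1.43 and 1.57, and Clk3, with 1.40 and 1.10. Srsf5 came next at 0.96 and 1.16, then Sf3b1 at 0.56 and 1.07. U2af1 was the lower member, at -1.22 (-1.48 to -0.97) and -1.20 (-1.56 to -0.86), followed by Snrpa at -0.66 and -0.63, Srpk1 at -0.57 and -1.32, and Hnrnpa1 at -0.54 and -0.59.

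In neutrophil barcodes 20 members could be set against tumour barcodes. Srsf5 was at 72.5 CPM in tumour barcodes of both libraries and at 301 and 420 CPM in neutrophil barcodes, log2 ratios of 2.05 (1.57 to 2.50) and 2.53 (2.26 to 2.80). Sf3b1 had 1.46 and 2.22, Tra2a 1.33 and 1.16, and Srsf11 0.94 and 1.23. Hnrnpa1, an hnRNP that shuttles between nucleus and cytoplasm, was at 322 and 296 CPM in tumour barcodes and at 66.1 and 32.6 CPM in neutrophil barcodes, log2 ratios of -2.28 (-3.41 to -1.36) and -3.19 (-4.31 to -2.26). Snrpb had -1.12 and -1.36, Srsf7 -0.88 and -1.45, and U2af1 -0.82 and -1.59. In both libraries 3 members were at least 2-fold higher and 2 at least 2-fold lower, against 28.8% and 34.2% of 1466 genes. The median log2 ratio in shCtrl and shSrsf10 was -0.41 and -0.55 over all measured genes and -0.00 and -0.31 over members. Median-of-ratios scaling subtracts -0.73 in shCtrl and -0.23 in shSrsf10 from these ratios and so raises them. The U2af1 ratio in shCtrl is close to that shift. Among members measured in all 3 immune classes, U2af1 and Snrpb were thus below tumour barcodes in each class of both libraries. Srsf5, Sf3b1, Sf3b2, Srsf11 and Srrm2 were above tumour barcodes in each.

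Tumour barcodes were also split by cell cycle RNA, a split added after the values between libraries were seen. Cycling barcodes were those with at least 0.1% of UMIs from a list of 12 cell cycle genes, none of them a member, and made up 30.4% of shCtrl and 36.6% of shSrsf10 tumour barcodes. They were deeper than the rest, with a median of 21305.5 against 16106 UMIs in shCtrl and 32156 against 23850 in shSrsf10. Of 40 members 36 were higher in cycling barcodes in both libraries, as were 53.0% of 13183 genes. The share among genes as deep as the members was not computed for this split, in tumour or in T barcodes. The median log2 ratio of cycling to other barcodes was 0.24 and 0.25 for members against 0.11 and 0.09 for all genes. At least 1.5-fold higher in both libraries were 3 members, close to the 6.5% of genes that were, and none was 1.5-fold lower, where 2.28% were.

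Those 3 were Srsf3, Tra2b and Srsf7. Srsf3 was at 177 CPM in other and 305 CPM in cycling barcodes of shCtrl and at 170 and 286 CPM in shSrsf10, log2 ratios of 0.78 (0.75 to 0.82) and 0.75 (0.72 to 0.79). Srsf7 had 0.61 (0.58 to 0.64) and 0.77 (0.73 to 0.80), and Tra2b 0.62 and 0.61. Srsf1 was at 0.58 and 0.48, U2af1 at 0.45 and 0.49, and Snrpb at 0.46 and 0.43. The CLK kinases were level, with Clk1 at 0.03 in both libraries, Clk2 at -0.07 and 0.01, Clk3 at 0.05 and 0.10 and Clk4 at -0.08 and -0.02, all with intervals that include 0. Srsf11 (0.00 and -0.04) and Hnrnpc (0.05 and 0.03) were level as well. Among the SR proteins Srsf3 and Srsf7 thus differed most by cell cycle.

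**Figure D5:**
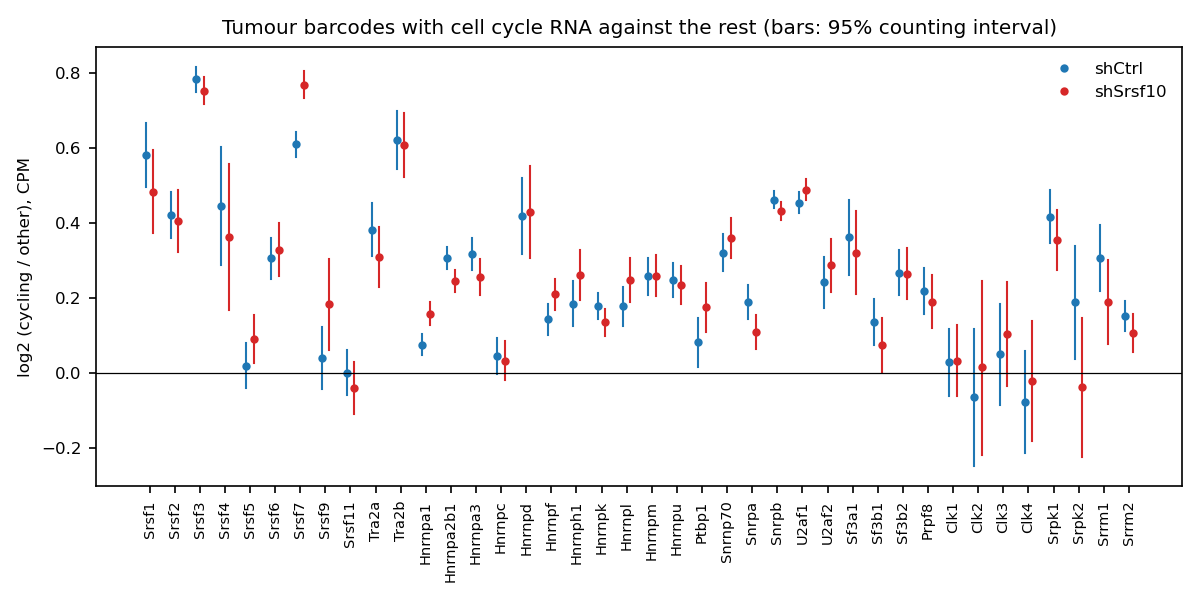
Log2 ratio of CPM, cycling over other tumour barcodes, for each measured member in order of role, in the shCtrl (blue) and shSrsf10 (red) libraries, with 95% counting intervals as bars. Srsf3, Srsf7 and Tra2b stand highest in both libraries, between 0.61 and 0.78, and the CLK kinases lie near 0 with intervals that include it.

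The same split of T barcodes gave 106 cycling and 218 other barcodes in shCtrl and 421 and 1434 in shSrsf10, again with deeper cycling barcodes (4330.5 against 1582 and 5336 against 2189 UMIs). Of 40 members 27 were higher in cycling barcodes in both libraries, as were 38.7% of 4429 genes. At least 1.5-fold higher in both were 5, where 11% of genes were, and 2 were at least 1.5-fold lower, where 8.99% were. Srsf3 had log2 ratios of 0.67 (0.38 to 0.98) and 1.24 (1.11 to 1.37), and U2af1 0.70 and 0.82. Snrpb had 0.74 in both libraries, and Snrpa 0.98 and 0.83. Srsf9 had 1.19 (0.10 to 2.39) and 0.76 (0.18 to 1.35). The part of the cycling share in the T ratios between libraries was not tested. The 2 lower members were Srpk2, with -0.93 (-1.77 to -0.11) and -0.76 (-1.11 to -0.41), and Clk4, with -0.60 (-1.78 to 0.55) and -0.59 (-1.06 to -0.12). Clk1, with -0.55 (-1.29 to 0.17) and -0.99 (-1.26 to -0.72), was short of 1.5-fold in shCtrl.

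The annotation of the members shares a feature that the rule did not use. In GENCODE vM21, 32 of 41 members (78.0%) have at least 1 transcript marked for nonsense-mediated decay, against 28.1% of 12957 protein-coding genes measured in tumour barcodes. A retained intron transcript is listed for 36 members (87.8%) against 57.9%, and both kinds for 73.2% against 22.1%. The members also have more listed transcripts, with a median of 9 against 5. Srsf9, Srsf2 and Srsf1 each have at least 1 decay transcript. So do Snrpa, Snrpb, U2af1 and Hnrnpa2b1, which had the highest ratios in tumour barcodes. UMI counts per gene do not separate these from productive transcripts, so the levels above sum over isoforms. The longest coding transcript had a median of 2679 bases in members and 3036 in the protein-coding genes measured in tumour barcodes. Across the 40 members in tumour barcodes, the log2 ratio between libraries had a Spearman correlation of -0.42 with this length, and of -0.27 in T and -0.20 in macrophage barcodes. These points share the same 2 libraries and are a description.

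Beyond the 41 members, 4 lists of related genes were followed. In tumour barcodes none of 45 other snRNP and core spliceosome genes passed 1.5-fold either way, and their median log2 ratio was -0.05. They ran from Prpf38b, at 32.6 and 23.4 CPM with -0.47 (-0.54 to -0.40), to Sf3a2, at 38.8 and 50.1 CPM with 0.37 (0.32 to 0.42). Of 42 measured other splicing regulators none was 1.5-fold higher and 6 were 1.5-fold lower, with a median of -0.32. That is close to the 13.3% of all tumour genes that were lower. Ptbp3, a paralogue of Ptbp1, was lowest, at 48.3 and 24.0 CPM with -1.01 (-1.07 to -0.94), and Rbmx highest at 0.56 (0.34 to 0.77). The others past 1.5-fold were Elavl1, Luc7l2, Hnrnpab, Hnrnpa0 and Luc7l3.

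Of 13 measured other kinases and phosphatases of SR proteins 3 were 1.5-fold lower in tumour barcodes and none higher. Ppp1cc, a catalytic subunit of protein phosphatase 1, was at 60.7 and 32.1 CPM with -0.92 (-0.98 to -0.87), and Ppp1ca, another such subunit, was at 376 and 428 CPM with 0.19 (0.17 to 0.20). Of 13 exon junction and decay genes 1 was higher and 1 lower. The higher was Magohb, from 8 and 18 UMIs, with 1.39 (0.12 to 2.80). The lower was Casc3, at 13.5 and 8.20 CPM with -0.71 (-0.83 to -0.60). Over all measured genes of tumour barcodes 8.89% were higher and 13.3% lower.

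In T barcodes 2 of 45 core genes were higher and 5 lower, from Snrnp200 at -0.82 (-1.26 to -0.36) to Snrnp40 at 0.64 (0.24 to 1.07). Of 41 measured regulators none was higher and 13 lower, from Hnrnpa0 at -1.20 (-1.60 to -0.78) to Pcbp2 at 0.10 (-0.09 to 0.30). Kinases and phosphatases gave 1 higher and 4 lower of 13, with Ppp1ca at 0.59 (0.45 to 0.73) and Hipk3 at -1.22 (-1.95 to -0.43). Exon junction and decay genes gave 1 higher and 6 lower of 13, with the highest ratio for Upf3a at 0.69 (0.12 to 1.31). Over all measured genes of T barcodes 12.9% were higher and 26.7% lower.

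In macrophage barcodes 3 of 40 measured core genes were higher and 8 lower, from Prpf6 at -1.38 (-3.11 to 0.00) to Plrg1 at 1.29 (-0.09 to 2.68). None of 37 regulators was higher and 15 were lower, from Hnrnpr at -1.79 (-4.17 to -0.06) to Syncrip at 0.40 (-0.43 to 1.20). Kinases and phosphatases gave none higher and 5 lower of 11, with Cdk12 at -1.43 (-2.97 to -0.17) and Ppm1g at 0.57 (-0.18 to 1.29). The decay list gave 1 higher and 4 lower of 11, with Magohb at 0.76 (0.11 to 1.39) and Smg5 at -1.66 (-3.63 to -0.14). Over all measured genes of macrophage barcodes 9.94% were higher and 24.3% lower. In neutrophil barcodes, where 30.5% of genes were higher and 20.1% lower, the lists had 14, 15, 4 and 3 measured genes. Their extremes were Snrpe at -1.37 (-2.07 to -0.68) and Snrpc at 0.79 (-0.39 to 2.13), Ewsr1 at -1.47 (-2.74 to -0.25) and Mbnl1 at 0.66 (-0.86 to 2.46), Ppp1cb at -0.48 and Ppp1ca at 0.64, and Rbm8a at -0.20 and Magoh at -0.11.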

How the data were processed

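Per the labels and file headers, each library is a matrix of genes by barcodes whose values are the authors' UMI counts, not normalized. Cell Ranger 6.1.0 and build mm10 are named in the submitters' processing notes, and a filter on barcodes before deposit is not stated. Barcodes were kept with 200 or more genes, a total of 500 UMIs or more and a mitochondrial share up to 20%, which left 9542 of 9920 in shCtrl and 7486 of 7553 in shSrsf10. The gates were then applied and UMIs summed per library and gate, so deep barcodes weigh more. A CPM has an exact Poisson interval and a ratio an exact conditional binomial interval at 95%, computed with scipy 1.17.1 and tested on simulated data. UMIs without replicate libraries give counting error only. Barcodes passing more than 1 gate were left out as possible doublets, and the doublet caller Scrublet served only as an alternative.

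Class comparisons needed 20 UMIs in each library, immune UMIs plus tumour UMIs scaled to the immune total. Coordinates and transcripts come from GENCODE vM21 and promoters from RefSeq, both on GRCm38. The members, lists and gates were chosen with earlier results of these data known. By rule the text names the 4 highest and 4 lowest ratios of each comparison, every SR protein and CLK kinase in tumour barcodes, and the highest and lowest ratio of each related list. One gene that this rule names is not reported here. Other members were named after their values were seen. Splicing itself was not analysed here.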

Additional observations from a re-analysis of the deposited data

Results flagged for a closer look

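Clk1 differed in direction between 2 immune classes. In neutrophil barcodes its log2 ratio of shSrsf10 over shCtrl was 0.64, from 6 and 19 UMIs, and in macrophage barcodes it was -0.88, from 45 and 11 UMIs. Both are past 1.5-fold, in opposite directions. The difference was not tested, since each class has 1 library per group, and both counting intervals include 0. Under the alternatives the neutrophil value ran from 0.28 to 1.15 and the macrophage value from -1.09 to -0.06.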

How the results depend on the processing

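No paired analysis was possible because each group had 1 library. Results were recomputed under 14 other settings, of which the minimum of 1000 UMIs for immune barcodes was chosen after seeing the data. The filter on liver RNA in immune barcodes removed none. Counts that stayed within 1.5 times of the reported count are not repeated. The share of all genes past the same fold was not computed under these settings. Whether a changed count is particular to the members is therefore not known. The cause of each change was not tested. The depth of immune barcodes limits all neutrophil and macrophage counts.

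With median-of-ratios scaling the tumour median was -0.071, 2 members were higher in T barcodes, 0 higher and 9 lower in neutrophil barcodes, 6 higher in T over tumour, and 5 higher and 1 lower in neutrophil over tumour. With totals that leave out mitochondrial and ribosomal protein genes, 0 were higher in T, 1 higher and 6 lower in neutrophil, 8 higher in T over tumour, 1 higher and 7 lower in neutrophil over tumour, and 2 lower in macrophage over tumour. With no UMI minimum, 6 were higher and 11 lower in neutrophil, 1 higher in macrophage, and 5 higher and 4 lower in neutrophil over tumour. With a minimum of 50 UMIs, 1 was higher and 1 lower in neutrophil, 1 higher in neutrophil over tumour and 0 higher in macrophage over tumour. With the mean CPM over barcodes, 1 was higher and 5 lower in neutrophil, and 1 higher and 11 lower in macrophage.

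With barcodes thinned to 1000 UMIs, 2 were higher in T, 1 higher and 0 lower in neutrophil, 2 higher and 4 lower in macrophage, 7 higher in T over tumour, 0 higher and 0 lower in neutrophil over tumour, and 0 higher and 2 lower in macrophage over tumour. With gates with no exclusion, 5 were lower in T, 1 higher and 9 lower in neutrophil, 1 higher in macrophage, 3 higher in T over tumour, and 0 higher and 0 lower in macrophage over tumour, and the macrophage log2 ratios of Hnrnpd and Prpf8 turned to 0.063 and 0.11. Without the highest Scrublet scores, 1 was higher in neutrophil and 4 lower in neutrophil over tumour. With stricter gates 0 were higher in T, as with at most 10% mitochondrial UMIs. Without cycling barcodes, 7 were lower in neutrophil, 1 higher in macrophage and 1 lower in neutrophil over tumour. In the depth window, 4 were lower in tumour, 2 higher in T, 1 lower in neutrophil, 4 higher in macrophage, 0 higher and 0 lower in neutrophil over tumour, and 0 higher and 0 lower in macrophage over tumour. With immune barcodes of at least 1000 UMIs, 0 were higher in T, 5 higher in neutrophil, and 0 higher and 0 lower in neutrophil over tumour.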
